A study of Arabidopsis thaliana with 18 samples.

Results

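The 104 genes described here were selected on measured FPKM for a low transcript level in hda6 seedlings after heat, out of 32548 genes in the expression table. Each had a group mean of at least 1 FPKM in heated Col-0 and above 0 in unheated Col-0, where FPKM is fragments per kilobase of exon per M fragments. Each was also at most 0.5 times the Col-0 mean in hda6 at 37 °C, and at least 0.67 times the Col-0 mean in hda6 at 22 °C. Of the 12411 genes that met the level requirement, which are called expressed genes below, 0.838% passed both ratios. The choice used the FPKM of Col-0 and hda6 at both temperatures, so the contrasts among those groups are given as a description of the genes, with no test resting on them.

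Seedlings of Arabidopsis thaliana were grown on plates of 1/2 MS medium at 22 °C in long days (16 h light, 8 h dark) and were harvested at 7 days. They were Col-0, the laboratory wild type, sant-null, labelled as quadruple mutants of SANT1/2/3/4, or hda6, labelled as a line made with the chemical mutagen EMS. Each genotype was either left at 22 °C or given 1 h at 37 °C, which gave 6 groups of 3 libraries and 18 libraries in all. The labels name 1 hda6 line without its allele. They also leave unsaid if the 3 libraries per group stem from different cultures, so p-values reflect just the variation among those libraries, which may be technical.

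HDA6 is a histone deacetylase of the RPD3 type, which removes acetyl groups from histone tails and is known for silencing transposons and repeats. Acetylated histones are bound by bromodomain proteins, among them the BET family. Abscisic acid is the plant hormone of water and temperature stress. Its level is set by synthesis through 9-cis-epoxycarotenoid dioxygenases and by breakdown through CYP707A hydroxylases, and its receptors act by blocking type 2C protein phosphatases of clade A, which otherwise hold the signalling kinases inactive.

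The FPKM columns hold the authors' mean of each group, but the read counts of single libraries could be recovered exactly from them and the deposited baseMean values for 32187 of the 32548 genes, among them 101 of the 104 members. The 18 library totals ranged from 38.1 to 53.6 M, and the libraries of a group correlated with each other at 0.987 or more. Libraries are named a, b and c from the largest total to the smallest, since the recovered values carry no replicate number. Values are listed in that order below. The recovered counts gave the deposited fold changes back with a median difference of at most 0.00252 on the log2 scale. Heat shifted the scales apart: a heat change computed from FPKM was lower than the deposited log2 fold change by a median of 1.01 for Col-0 seedlings, 1.05 for sant-null and 1.06 for hda6, while comparisons at a single temperature moved by at most 0.0878. All samples were bulk seedlings, in which fewer cells of a type and less RNA per cell cannot be told apart.

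The members' hda6 to Col-0 ratio at 37 °C ran from 0.224 to 0.4995 with a median of 0.448, and that at 22 °C from 0.673 to 5.60 with a median of 0.943. In total 36 members were above Col-0 at 22 °C, and the highest of these ratios, that of AT2G08440, rested on 1 read in the 3 Col-0 libraries. Most members were expressed at a low level: 51 were under 2 FPKM in heated Col-0 and 19 were at 5 FPKM or more. In the authors' deposited table for hda6 against Col-0 at 37 °C, 93 of the 104 were called lower at an adjusted p under 0.05, beside 9.41% of all genes tested, a count that the choice of members fixes in large part. The 89 coding members were all among the 93, whereas of 15 noncoding members 4 were. Every hda6 library lay below every Col-0 library at 37 °C for 93 of the 101 recovered members, beside 23.8% of expressed genes, and the remaining 8 were all noncoding. At 22 °C the authors' deposited table called 13 members lower in hda6 and 0 higher. The shares of all genes tested were 4.5% for lower and 6.1% for higher, and those of expressed genes were not computed. For these 13 members a lower level was thus not particular to heat. They included DFL1, GAI, RAV1, APR3 and XT1, and their log2 fold changes at 22 °C lay between -0.62 and -0.22. Among the 101 recovered members, every hda6 library lay below every Col-0 library at 22 °C for 28 and above for 6. That share was not computed for expressed genes. The deposited log2 fold change at 22 °C was below 0 for 77 of the 104, with a median of -0.14, beside -0.03 for expressed genes.

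**Figure D1:**
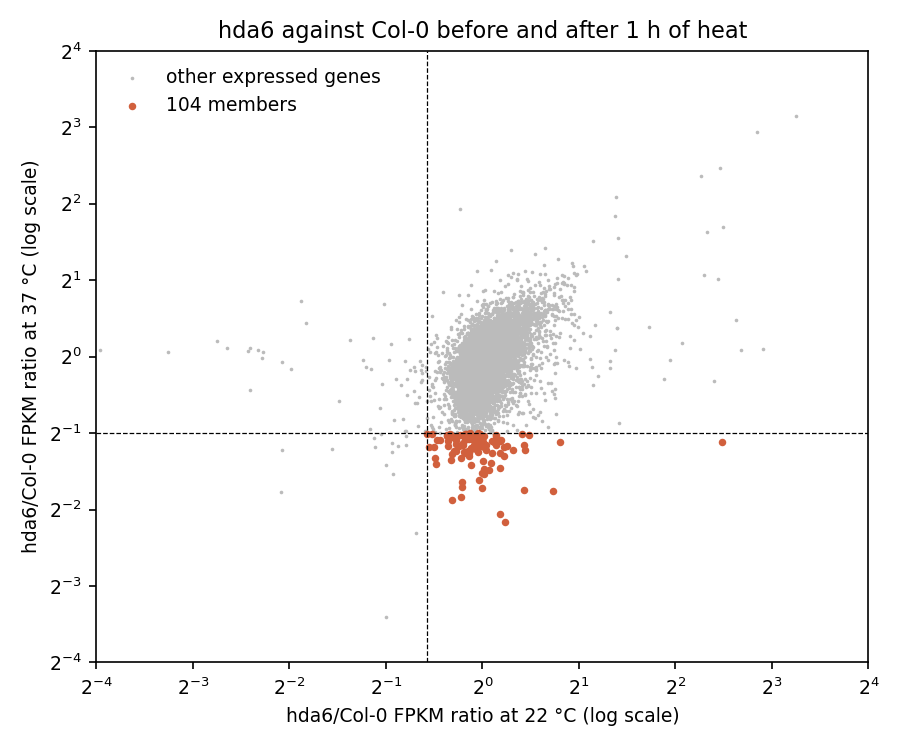
Each point is a gene, placed by its hda6 to Col-0 FPKM ratio at 22 °C (x axis) and at 37 °C (y axis), both on log scales; dashed lines mark the ratios 0.67 and 0.5 of the rule, and 15 genes lie outside the plotted range of 0.0625 to 16. The 104 members fill the lower right corner and reach down to 0.224, most of them close to the line at 0.5.

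The threshold cuts through a continuous range. Just inside it at 37 °C lay the transcription factor gene MYB74 at a ratio of 0.498, the glycosyltransferase gene AT1G12990 at 0.499 and the nuclease-like gene AT4G29780 at 0.4995. Just outside lay the disease resistance gene RPP13 at 0.5001, AT2G35742 at 0.501 and the transcription factor gene MYB77 at 0.501. At 22 °C the subtilase gene AT5G45650 was inside at 0.673 and AT2G34610 outside at 0.620. Of the genes that met the level requirement, 120 had a ratio of at most 0.5 at 37 °C whatever their ratio at 22 °C, so 104 of 120 passed the condition at 22 °C. The opposite pattern, a ratio of at least 2 at 37 °C with no more than the inverse of 0.67 at 22 °C, was met by 15 of the same genes. The level requirement was set on Col-0, so genes under 1 FPKM in heated Col-0 and higher in heated hda6 were not counted. The counts 104 and 15 are therefore not alike and say nothing on which direction was more common.

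Genes of the abscisic acid pathway stood on both the synthesis and the breakdown side. NCED3 (AT3G14440) encodes the dioxygenase of stress-induced abscisic acid synthesis, CYP707A3 (AT5G45340) and CYP707A4 (AT3G19270) encode hydroxylases of its breakdown, and HAI1 (AT5G59220) encodes a clade A phosphatase. The 250 bases before the annotated start of these 4 genes are shown because all 4 rose with heat in Col-0 and were low together in hda6. They were read from the RefSeq TAIR10.1 assembly on the minus strand at chr3:4834016-4834265 for NCED3, chr3:6676522-6676771 for CYP707A4, chr5:18371022-18371271 for CYP707A3 and chr5:23896940-23897189 for HAI1, and are written 5′ to 3′. Capitals mark ACGTG, the core of the abscisic acid response element, or its reverse complement; neither GAANNTTC, a heat shock element, nor CCGAC, a DRE core, was in any of the 4.
NCED3: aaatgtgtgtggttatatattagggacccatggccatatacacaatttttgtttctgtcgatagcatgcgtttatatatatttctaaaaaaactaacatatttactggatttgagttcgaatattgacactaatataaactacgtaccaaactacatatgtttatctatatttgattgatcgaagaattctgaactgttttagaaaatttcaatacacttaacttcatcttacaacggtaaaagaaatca
CYP707A4: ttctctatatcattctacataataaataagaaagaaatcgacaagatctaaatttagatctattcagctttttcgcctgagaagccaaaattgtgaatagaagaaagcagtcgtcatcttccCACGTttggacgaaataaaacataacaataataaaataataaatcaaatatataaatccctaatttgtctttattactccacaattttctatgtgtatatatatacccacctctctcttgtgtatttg
CYP707A3: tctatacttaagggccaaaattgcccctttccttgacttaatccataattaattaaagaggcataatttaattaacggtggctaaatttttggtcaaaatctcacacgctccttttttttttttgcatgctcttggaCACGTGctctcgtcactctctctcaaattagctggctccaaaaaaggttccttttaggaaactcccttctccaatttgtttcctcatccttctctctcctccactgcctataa
HAI1: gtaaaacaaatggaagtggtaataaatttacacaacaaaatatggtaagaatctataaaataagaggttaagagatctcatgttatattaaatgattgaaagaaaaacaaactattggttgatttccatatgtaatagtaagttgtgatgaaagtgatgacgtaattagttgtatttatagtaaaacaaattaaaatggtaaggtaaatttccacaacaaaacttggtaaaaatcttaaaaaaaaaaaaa
CYP707A3 holds the G-box CACGTG starting at position -113 from the gene's start, in which the core reads on both strands, and CYP707A4 holds 1 core starting at -128. NCED3 and HAI1 hold none in this window, which says only that these letters are not there.

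NCED3 was at 0.686, 0.494 and 0.583 FPKM in Col-0 at 22 °C and at 5.38, 4.80 and 5.201 FPKM after heat. In hda6 it was at 0.653, 0.761 and 0.437 FPKM at 22 °C and at 1.74, 1.83 and 1.92 FPKM after heat. In sant-null it was at 0.656, 0.763 and 0.735 and then at 3.81, 3.66 and 4.04 FPKM. The 3 genotypes overlapped at 22 °C, and at 37 °C they formed 3 separate ranges with Col-0 highest, sant-null between and hda6 lowest. The authors' deposited table gave a log2 fold change at 37 °C of -1.49 ± 0.11 (SE) in hda6, and for sant-null it gave -0.46 ± 0.10.

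CYP707A4 had the lowest hda6 to Col-0 ratio of the coding members, at 24.0%. It was at 0.225, 0.190 and 0.321 FPKM in Col-0 at 22 °C and at 3.62, 3.38 and 3.15 FPKM after heat. In hda6 it went from 0.267, 0.266 and 0.305 to 0.647, 1.04 and 0.745 FPKM. In sant-null it went from 0.213, 0.250 and 0.268 to 3.54, 3.37 and 3.79 FPKM. The sant-null libraries overlapped those of Col-0 at both temperatures, and all 3 heated hda6 libraries lay below every heated library of the other genotypes. The authors' deposited table gave -2.06 ± 0.19 in hda6 and 0.03 ± 0.13 in sant-null at 37 °C on the log2 scale.

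CYP707A3 rose less with heat in Col-0, from 0.669, 0.791 and 0.895 to 1.26, 1.63 and 1.71 FPKM, and was at 0.864, 0.734 and 0.565 FPKM in heated hda6. In heated sant-null it was at 1.09, 0.936 and 0.928 FPKM, between the other genotypes and apart from both. HAI1 was at 2.19, 2.43 and 2.09 FPKM in heated Col-0. It was at 1.16, 1.12 and 1.13 FPKM in heated sant-null and at 1.09, 0.764 and 1.17 FPKM in heated hda6, so both mutants lay below Col-0 and overlapped each other. MAPKKK17 (AT2G32510), a kinase gene that acts in abscisic acid signalling, was likewise below Col-0 in both heated mutants, which overlapped each other. It was at 3.73, 3.26 and 4.38 FPKM in heated Col-0, at 1.46, 1.52 and 1.65 FPKM in heated sant-null and at 1.602, 2.05 and 1.71 FPKM in heated hda6. At 22 °C the 3 hda6 libraries of MAPKKK17, at 0.781, 0.826 and 0.858 FPKM, overlapped the Col-0 libraries at 0.779, 0.834 and 0.593 FPKM.

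RDUF1 (AT3G46620) and RDUF2 (AT5G59550) encode RING-type ubiquitin ligases of the abscisic acid response to drought. They differed from the genes above in that neither rose with heat in Col-0. In the authors' deposited table RDUF1 fell, with a log2 change of -0.77 ± 0.15, and RDUF2 was not called, at 0.06 ± 0.15. RDUF2 was at 1.87, 1.86 and 1.68 FPKM in heated Col-0, at 1.59, 1.18 and 1.47 FPKM in heated sant-null and at 0.689, 0.924 and 0.638 FPKM in heated hda6. RDUF1 was at 1.37, 1.38 and 1.21 FPKM in heated Col-0, at 1.21, 1.03 and 1.26 FPKM in heated sant-null and at 0.554, 0.502 and 0.806 FPKM in heated hda6. For both, every heated hda6 library was below every other heated library. At 22 °C RDUF2 was at 3.75, 3.36 and 3.37 FPKM in Col-0 and at 2.95, 3.36 and 2.91 FPKM in hda6, the highest hda6 library being level with the lowest of Col-0, and was not called.

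**Figure D2:**
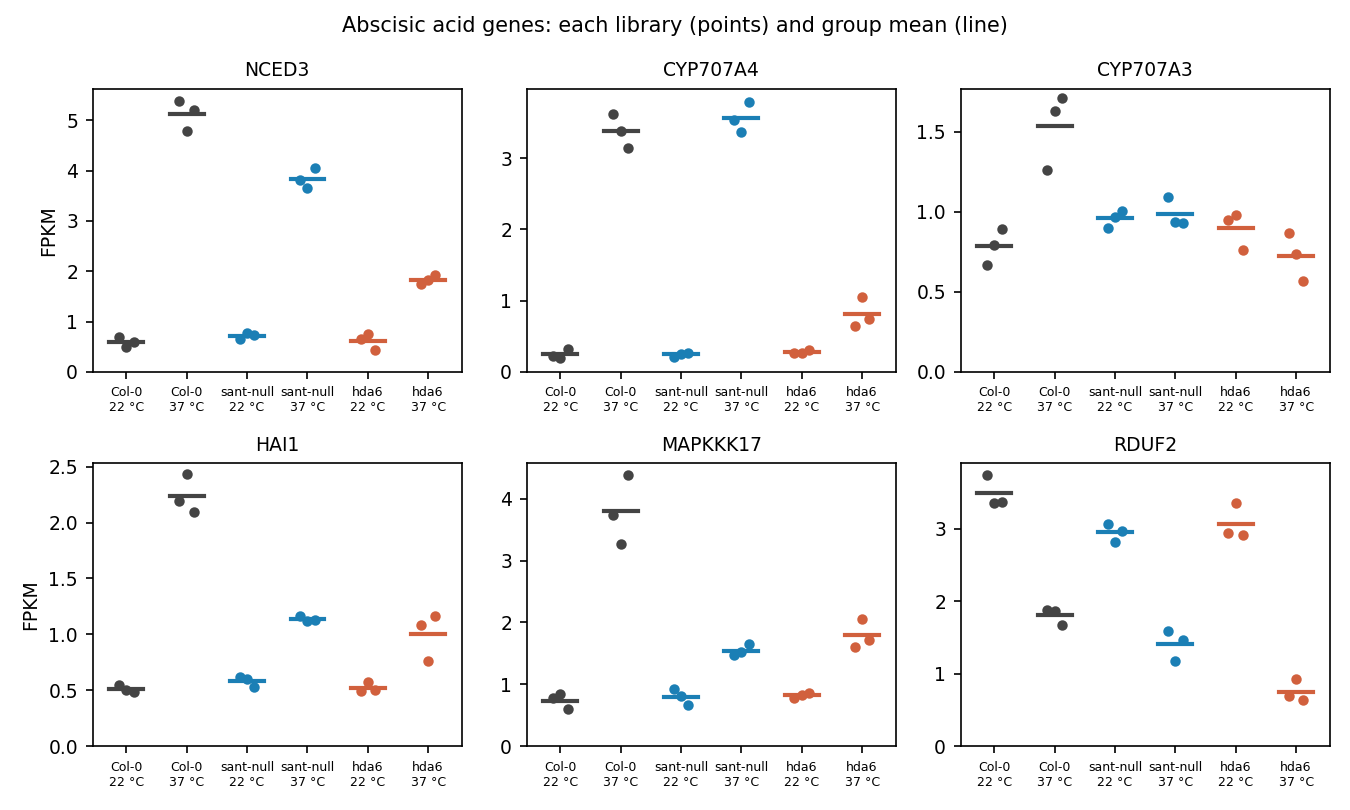
FPKM of 6 abscisic acid genes in each of the 18 libraries (points) with the group mean (line), by genotype and temperature. NCED3 and CYP707A4 rose in all 3 genotypes and least in hda6, HAI1 and MAPKKK17 were about equally low in both heated mutants, and RDUF2 was lowest in heated hda6 without a rise in Col-0.

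A wider list of 44 genes of abscisic acid synthesis, breakdown, reception and signalling, drawn up after the members were known and so given without a test, held 4 members. Of the 33 other genes with an adjusted p in the authors' deposited table for hda6 at 37 °C, 9 were lower and 2 higher, beside 9.41% and 9.06% of all genes tested. The 9 included the phosphatase genes ABI1, ABI2, HAB1 and PP2CA, the receptor genes PYL1 and PYL4, the breakdown gene CYP707A1, the transcription factor gene ABF2 and the synthesis gene NCED9. NCED9 was at 0.45 FPKM in heated Col-0 and 0.06 FPKM in heated hda6, under the level the choice of members required. The kinase genes SNRK2.2, SNRK2.3 and OST1 had log2 fold changes between -0.14 and 0.07 in the authors' deposited table, none called, and the genes called higher were the synthesis gene ABA1 at 0.20 and the receptor gene PYR1 at 0.36. The median of the 33 genes that are not members in that table was -0.21, beside 0.01 over all genes. At 22 °C 38 listed genes that are not members were tested in hda6. PYL4 and PYL6 were lower and 0 higher, beside 4.5% and 6.1% of all genes tested. In heated sant-null 5 of 33 were lower, namely ABF2, ABI2, PYL1, PYL4 and PYL5, and 1, ABA1, was higher. The shares of all genes tested there were 4.05% and 4.72%.

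Chromatin genes formed a small group of 3 members. GTE2 (AT5G10550) and GTE7 (AT5G65630) encode BET bromodomain proteins, which bind acetylated histones, and SDG40 (AT5G17240) encodes a SET domain protein. GTE2 had the highest level of all members: 97.2, 85.4 and 82.0 FPKM in heated Col-0, up from 17.98, 15.9 and 16.6 FPKM at 22 °C. In heated sant-null GTE2 was at 63.6, 67.8 and 65.1 FPKM and in heated hda6 at 36.3, 36.1 and 35.2 FPKM, with no overlap between any pair of heated genotypes. At 22 °C the hda6 libraries were at 15.9, 14.4 and 15.6 FPKM. Its log2 fold change at 37 °C in the authors' deposited table was -1.30 ± 0.06 in hda6 and -0.47 ± 0.06 in sant-null.

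GTE7 showed the low level in hda6 without a higher level after heat. It was at 9.43, 8.78 and 9.24 FPKM in Col-0 at 22 °C and at 4.32, 4.14 and 4.38 FPKM after heat, a log2 fold change of -0.09 ± 0.08 in the authors' deposited table, which was not called, while the FPKM values did not overlap. Heated sant-null, at 4.17, 4.03 and 4.40 FPKM, overlapped heated Col-0. Heated hda6 was at 1.88, 2.05 and 2.02 FPKM, below both. SDG40 was at 1.79, 1.63 and 1.69 FPKM in heated Col-0 and at 0.399, 0.969 and 0.884 FPKM in heated hda6, where library a was lowest. GTE2, GTE7, AT5G04840, APR3, RDUF1 and LEA7 overlap a gene on the opposite strand in the annotation and AT5G66070 a gene on the same strand. Use of strand in counting (not given in the sources used here) is unknown, so reads of such genes cannot be told apart from those of their partners. In all 23 members overlap another gene, 22.1%, beside 32.1% of expressed genes.

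AT1G72416, AT4G12410 and AT5G04840 had log2 changes with heat of 6.74, 6.37 and 5.18 in Col-0 in the authors' deposited table and also rose in hda6. The lncRNA gene AT2G08440 and AT2G32130, at log2 changes of 6.48 ± 1.33 and 7.00 ± 1.08 in Col-0 in the authors' deposited table, were at or near 0 FPKM at 22 °C and were not called in hda6. AT1G72416 encodes a DnaJ-domain protein of the chaperone superfamily and went from 1.07, 1.23 and 1.49 to 65.2, 68.6 and 65.1 FPKM in Col-0. In hda6 AT1G72416 went from 1.03, 0.926 and 0.726 to 28.6, 28.8 and 30.0 FPKM, and heated sant-null lay between at 53.5, 52.6 and 50.6 FPKM. None of these ranges overlapped after heat. AT4G12410, a SAUR-like gene of a family induced by auxin, went from 0.362, 0.142 and 0.201 to 9.87, 10.2 and 9.72 FPKM in Col-0 and reached 4.69, 4.25 and 4.25 FPKM in hda6. The bZIP gene AT5G04840 reached 20.2, 19.7 and 19.6 FPKM in heated Col-0 and 9.54, 9.53 and 9.91 FPKM in heated hda6. For these 3 genes the hda6 to Col-0 ratio was below 1 at 22 °C too, between 0.683 and 0.778, where their levels were low.

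MSL6 (AT1G78610), which encodes a channel of the mechanosensitive MscS-like family, did not separate by temperature in hda6 in FPKM. MSL6 went from 4.51, 4.57 and 4.70 to 11.2, 10.5 and 10.3 FPKM in Col-0, whereas in hda6 it was at 4.36, 4.77 and 4.54 and then at 4.62, 4.96 and 4.58 FPKM. In the same 2 groups of sant-null it was at 5.06, 4.39 and 4.87 and then at 8.00, 7.47 and 7.67 FPKM. On the deposited scale, relative to which heat moved the FPKM scale down, the log2 change in hda6 was 1.11 ± 0.11. The chitinase gene CHI (AT2G43570) went from 1.27, 0.894 and 0.884 to 7.42, 7.79 and 8.46 FPKM in Col-0 and reached 3.34, 2.92 and 2.99 FPKM in hda6, while heated sant-null at 7.57, 7.06 and 6.05 FPKM overlapped heated Col-0.

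**Figure D3:**
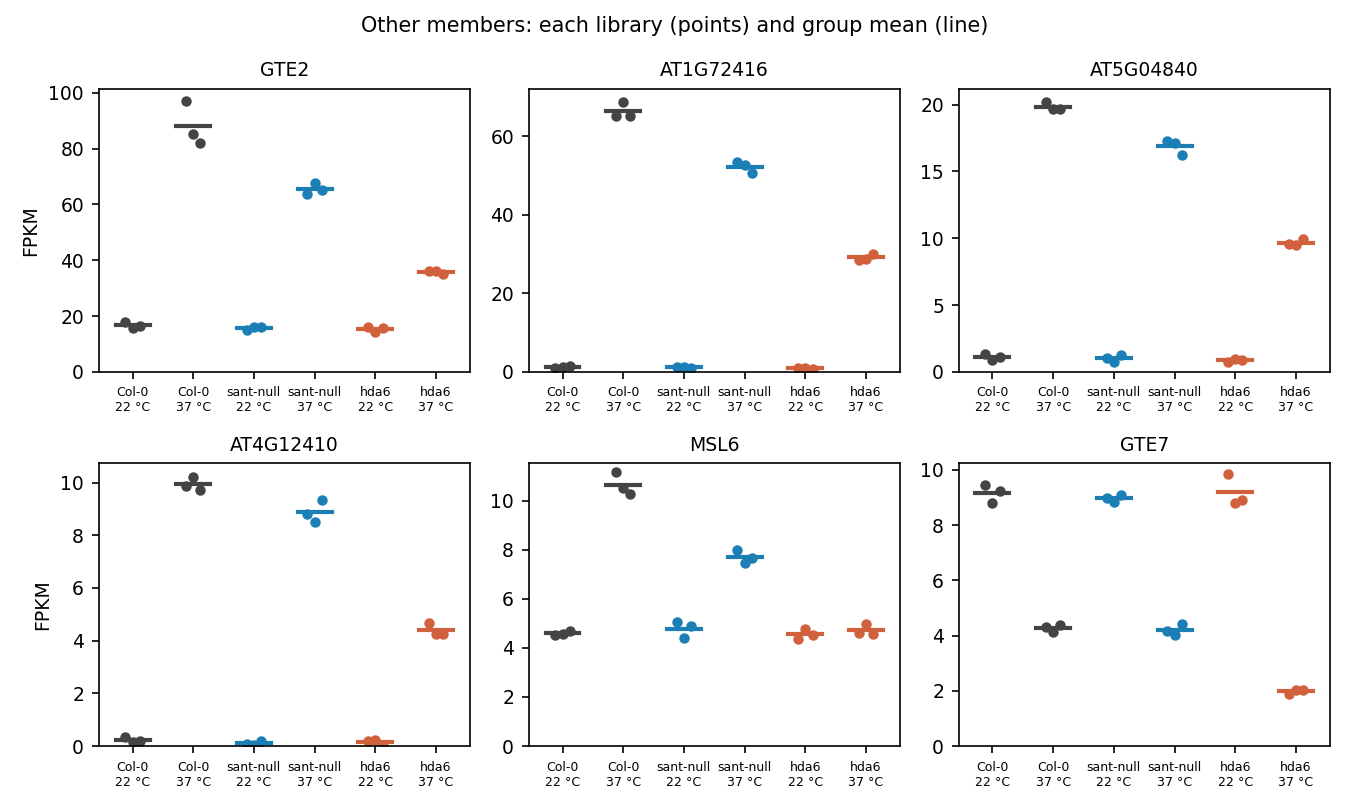
FPKM of 6 further members in each of the 18 libraries (points) with the group mean (line), by genotype and temperature. In heated hda6 all 3 libraries lie below all 3 of heated Col-0 in each panel, and in 5 of the panels, all but that of GTE7, heated sant-null lies between them.

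Besides RDUF1 and RDUF2, 4 members were grouped under ubiquitin ligation after the members were known, and further members may share that role. None of the 4 was called in hda6 at 22 °C. PP2-A11 (AT1G63090), which encodes an F-box protein with a phloem-protein-like domain, had the lowest ratio, 34.5%, of the members at 5 FPKM or more. PP2-A11 was at 5.78, 5.42 and 5.53 FPKM in Col-0 at 22 °C and at 6.64, 6.37 and 6.65 FPKM after heat. In hda6 it was at 5.99, 5.03 and 5.90 FPKM and then at 2.28, 2.02 and 2.49 FPKM, below heated sant-null at 4.72, 4.20 and 4.28 FPKM. The RING/U-box gene AT5G66070, the U-box ligase gene PUB29 and the U-box gene CMPG2 were at 45.8%, 43.6% and 42.4% of Col-0. These 4 were called lower in heated sant-null too, with log2 fold changes between -0.95 and -0.26 in the authors' deposited table, whereas RDUF1 and RDUF2, at -0.22 ± 0.20 and -0.40 ± 0.18, were not called there.

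DFL1 (AT5G54510), a GH3 enzyme gene whose family joins auxin to amino acids, and APR3 (AT4G21990), an enzyme gene of sulfate assimilation, had overlapping levels in the heated mutants. DFL1 was at 11.5, 9.72 and 10.9 FPKM in heated Col-0, at 5.18, 5.47 and 5.94 FPKM in heated sant-null and at 4.99, 5.69 and 5.14 FPKM in heated hda6. APR3 was at 18.4, 17.0 and 17.7, at 9.13, 8.88 and 9.07 and at 9.39, 9.33 and 7.67 FPKM in the same order. Both mutants overlapped each other and lay below Col-0 for both genes. At 22 °C DFL1 in sant-null, at 8.46, 8.599 and 9.72 FPKM, was already below Col-0 at 13.9, 14.95 and 13.5 FPKM and below hda6 at 12.6, 12.1 and 12.6 FPKM.

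Among 13 transcription factor members, 7 rose and 4 fell with heat in Col-0 in the authors' deposited table, beside 51.2% and 22.6% of expressed genes. The MYB genes MYB70, MYB74, MYB102 and MYB111 were among those that rose. MYB102 (AT4G21440) reached 2.86, 2.59 and 3.37 FPKM in heated Col-0 and 1.59, 1.04 and 1.13 FPKM in heated hda6, with sant-null at 2.17, 1.51 and 2.55 FPKM below Col-0 and overlapping hda6. The 4 that fell were GAI, RAV1, HB30 and LBD39. GAI (AT1G14920), which encodes a DELLA repressor of gibberellin signalling, fell from 11.9, 11.8 and 11.3 to 1.40, 1.37 and 1.59 FPKM in Col-0. In hda6 GAI fell from 9.06, 8.26 and 8.48 to 0.613, 0.760 and 0.669 FPKM and was already called lower at 22 °C. LBD39 (AT4G37540), a nitrogen-responsive LOB-domain gene, fell to 3.54, 3.65 and 3.57 FPKM in heated Col-0, to 2.66, 2.72 and 2.68 FPKM in heated sant-null and to 1.95, 1.61 and 1.67 FPKM in heated hda6, with no overlap.

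The 21 enzyme members had varied roles, among them KCS2 and CYP86A8 of fatty acid elongation and hydroxylation, the xyloglucan xylosyltransferase XT1 and the squalene epoxidase SQE2. CYP86A8 (AT2G45970) fell with heat in Col-0 from 13.4, 13.1 and 13.2 to 1.90, 1.98 and 2.17 FPKM and in hda6 from 12.6, 13.6 and 11.2 to 0.872, 0.850 and 1.00 FPKM. XT1 (AT3G62720) was at 2.77, 1.80 and 2.58 FPKM in heated Col-0 and at 0.844, 0.898 and 0.551 FPKM in heated hda6, 32.1% of Col-0. SQE2 (AT2G22830) stood out by sant-null: it was at 1.98, 2.19 and 2.11 FPKM in heated Col-0, at 0.903, 0.786 and 1.00 FPKM in heated hda6 and at 0.7996, 0.918 and 0.677 FPKM in heated sant-null. Over the whole group the median log2 fold change at 37 °C in the authors' deposited tables was -1.15 in hda6 and -0.41 in sant-null.

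The 15 noncoding members were 7 lncRNA genes, 5 snoRNA genes and the 3 miRNA precursor genes MIR156a, MIR825 and MIR159b, and they rested on few reads. They made up 14.4% of the members, whereas 98.99% of expressed genes were protein coding. Their median exonic length was 196 bases, beside 1847 bases for the coding members. Their median baseMean, the authors' normalised read count, was 9.15 at 37 °C, beside 131.5 for the coding members. MIR825 (AT2G26211) had the lowest ratio of all members, 22.4%, on 11, 9 and 12 reads in the heated Col-0 libraries and 2, 4 and 1 in those of hda6, and overlaps another gene on its strand. The authors' deposited table did not call it lower in hda6. Some members sit side by side: on chromosome 1 AT1G74456 lies 464 bases from AT1G74450 and 148 bases from AT1G09467, and on chromosome 5 AT5G00980 and AT5G00985 are 297 bases apart.

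Most members were also lower in heated sant-null than in heated Col-0, by less than in hda6. This comparison shares the Col-0 libraries that the choice of members used, so it is a description. By the 37 °C comparison of sant-null in the authors' deposited table, 42 of 104 members were called lower and 1 higher, beside 4.05% and 4.72% of all genes tested and 6.78% and 4.23% of expressed genes. The median log2 fold change of the members was -0.46 in sant-null and -1.16 in hda6, beside 0.01 over all genes in each table. By group mean FPKM, 95 members were lower in heated sant-null than in heated Col-0, and the median sant-null to Col-0 ratio was 0.749, beside 1.01 over expressed genes. Heated hda6 was below heated sant-null for 100 of 104, all but MAPKKK17, SQE2, MIR825 and AT1G04217. For 73 of the 101 recovered members every hda6 library was below every sant-null library. The choice of members required low heated hda6 values, which fixes this order in large part. Its share over expressed genes was not computed.

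The heated sant-null to Col-0 ratio ranged from 0.188 for MIR825 to 1.61 for BSK10. In sant-null 7 members were at 0.5 of Col-0 or less, namely MIR825, AT1G49450, AT1G04217, SQE2, MIR159b, MAPKKK17 and LEA7. At the other end 9 were above Col-0, and BSK10 (AT5G01060), a brassinosteroid signalling kinase gene, was the single member called higher. BSK10 was at 1.26, 1.32 and 1.45 FPKM in heated Col-0, at 2.45, 2.28 and 1.77 FPKM in heated sant-null and at 0.508, 0.488 and 0.728 FPKM in heated hda6, with no overlap. At 22 °C the authors' deposited table called 23 members lower and 1 higher in sant-null, beside 8.98% and 8.82% of all genes tested and 15.4% and 5.27% of expressed genes.

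**Figure D4:**
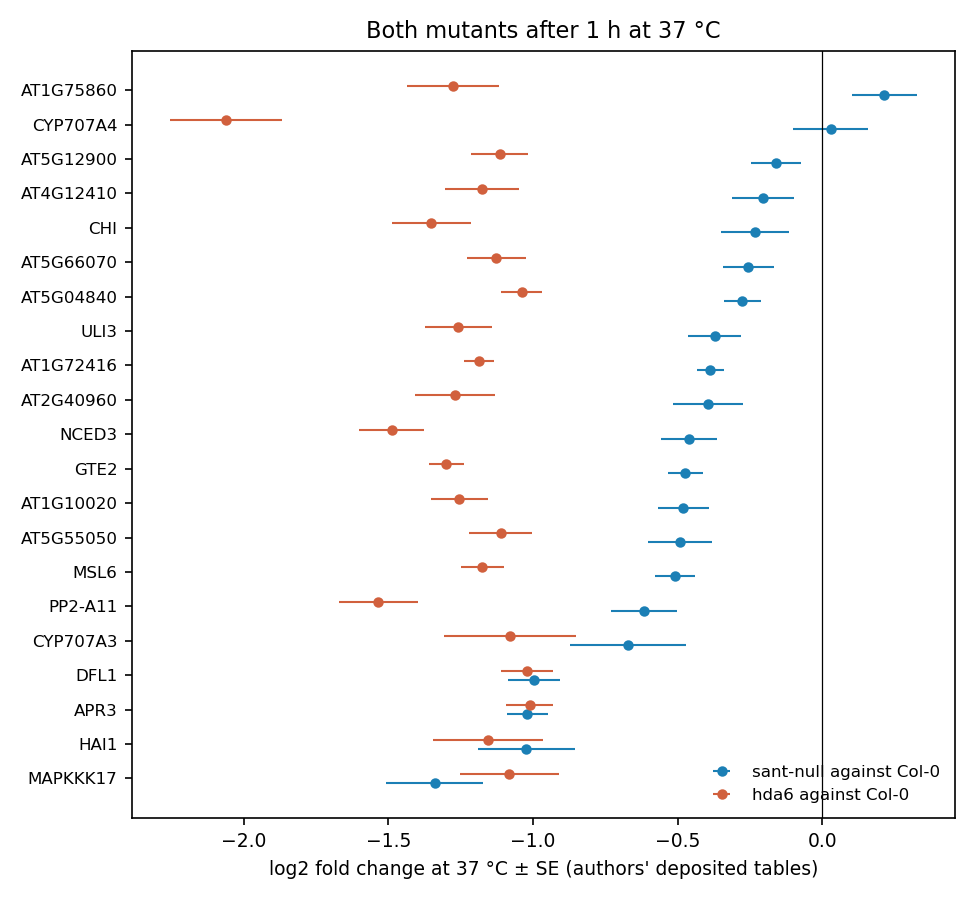
Log2 fold change ± SE at 37 °C in the authors' deposited tables for sant-null (blue) and hda6 (orange) against the same Col-0 libraries, for 21 members ordered by the sant-null value. CYP707A4, second from the top, is 0.03 in sant-null and -2.06 in hda6, whereas for DFL1, APR3 and HAI1 near the bottom the bars of both mutants overlap, and for MAPKKK17 the sant-null value is the lower.

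Heat moved the members in both directions in Col-0. By the heat comparison of Col-0 in the authors' deposited table, 58 members rose and 23 fell, beside 30.1% and 29.9% of all genes tested and 51.2% and 22.6% of expressed genes. The 58 that rose had a median log2 change of 2.00 in Col-0, against 1.61 for sant-null and 0.97 for hda6. The 23 that fell had medians of -0.93, -1.32 and -2.13 in the same order of genotypes. The 23 not called in Col-0 had medians of -0.08, -0.63 and -0.97. That hda6 lay below Col-0 in each class is fixed by the choice of members. In hda6, 34 members rose and 40 fell, beside 25.4% and 22% of all genes tested. The shares of expressed genes were not computed for hda6, and in Col-0 expressed genes rose more often than all genes. The heat response was lower in hda6 than in Col-0 for 69 of 104 by the difference of the deposited fold changes (Wald test, Benjamini-Hochberg adjusted), beside 2.79% of all genes (1.87% were higher), which the choice of members fixes. For sant-null the heat response was lower for 6 and higher for 0, beside 0.337% and 0.499% of all genes; this difference also contains the Col-0 libraries that the choice of members used and is a description.

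The heat response of sant-null compares its own libraries at both temperatures, since the Col-0 terms cancel when the deposited fold changes are combined, and was the test across samples that is independent of the choice of members. Of 104 members 51 rose and 30 fell after 1 h at 37 °C in sant-null (combined deposited fold changes, Wald test, adjusted p under 0.05). Among all genes tested 26.1% rose and 21.5% fell, and among expressed genes 46.7% and 18.2%, so that the share of members that rose, 49.0%, was near that of expressed genes, and the share that fell was 28.8%. The median log2 change of the members was 0.67, beside 0.31 for expressed genes. On the FPKM scale, where heat lowered most genes, 26 members rose and 48 fell, beside 4.68% and 65.8% of all genes tested and 7.94% and 76.4% of expressed genes. Of the 58 members that rose in Col-0, 51 rose in sant-null too, while AT1G49450, AT1G73890, AT2G08440, AT2G32130, KCS2, SQE2 and WOX4 did not pass the test.

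Among members past the test the largest rises in sant-null were those of AT4G12410 by 7.36 ± 0.80 (SE) on the log2 scale (adjusted p = 5.06e-19) and AT1G72416 by 6.59 ± 0.24 (adjusted p = 2.41e-158). AT5G04840 rose by 5.09 ± 0.26 (adjusted p = 2.86e-85) and CYP707A4 by 4.93 ± 0.47 (adjusted p = 3.79e-24). MYB102, CHI, NCED3 and GTE2 rose by 4.52 ± 0.62, 3.77 ± 0.31, 3.47 ± 0.25 and 3.12 ± 0.09. For these 8 genes every sant-null library at 37 °C was above every one at 22 °C, also in FPKM. AT2G32130 had the highest estimate, 8.06 ± 3.70, but was at 0 in all 3 sant-null libraries at 22 °C and missed the threshold (adjusted p = 0.06). The lncRNA genes AT1G04913 and AT1G05043 rose by 4.50 ± 1.29 and 4.29 ± 1.24. HAI1 and CYP707A3 rose by 2.01 ± 0.32 and 1.10 ± 0.30, the latter with overlapping FPKM. PP2-A11, AT1G10020 and DFL1 rose on the deposited scale, by 0.77 ± 0.16, 0.74 ± 0.12 and 0.36 ± 0.11, but were lower after heat in FPKM.

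The largest falls among coding members in sant-null were those of PAO5, a polyamine oxidase gene, with a log2 change of -2.22 ± 0.25 (adjusted p = 4.70e-18), GAI with -2.18 ± 0.19 (adjusted p = 2.85e-29), AT5G09670 with -2.17 ± 0.19, CYP86A8 with -2.03 ± 0.16 (adjusted p = 2.33e-35) and AT3G19540 with -1.80 ± 0.24. The noncoding genes MIR159b and AT1G09467 changed by -2.76 ± 0.97 and -2.01 ± 0.85. MIR825 fell with a log2 change of -3.94 ± 0.96 (adjusted p = 1.52e-04), from 64, 51 and 52 reads to 1, 1 and 4. These falls were present on both scales.

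**Figure D5:**
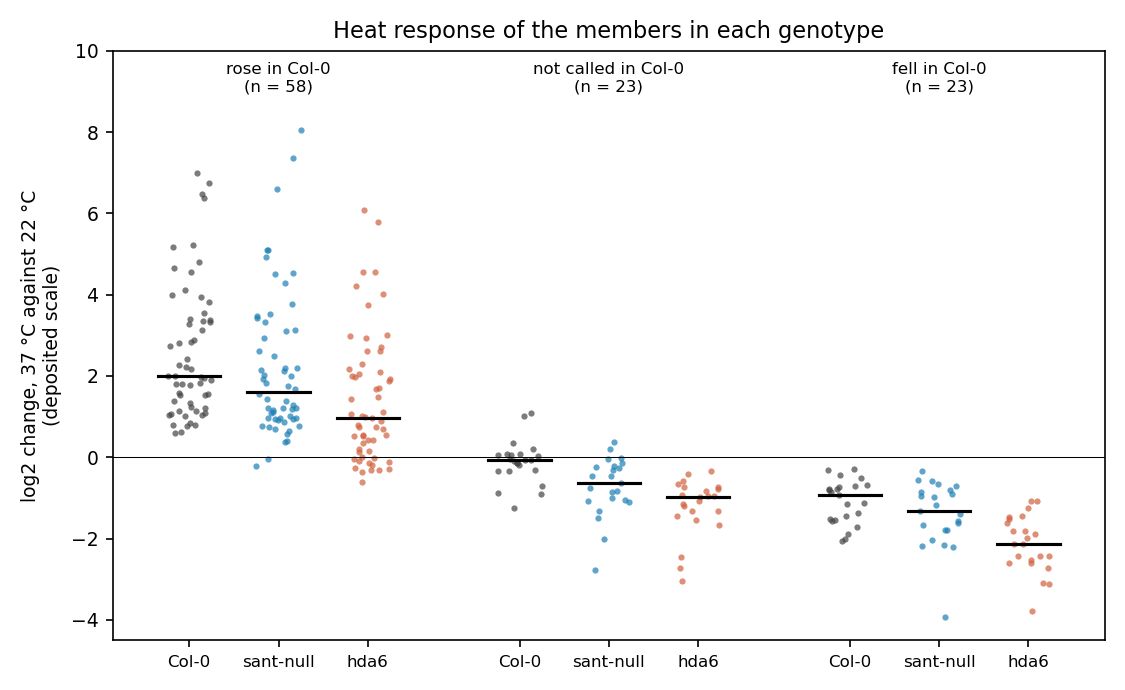
Log2 change from 22 °C to 37 °C on the deposited scale for each of the 104 members (points), by genotype, split by the call in Col-0; black lines are medians. In each class the hda6 median is lowest, at 0.97, -0.97 and -2.13, and the sant-null median lies between. The choice of members fixes that hda6 lies below Col-0, and it used the Col-0 libraries with which sant-null is compared, so the order is a description.

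The promoters of the 89 coding members, 250 bases before to 50 bases after the gene's start on both strands, were searched for 10 motifs. The core ACGTG was in 29 of them, 32.6%, beside 28.5% of the 12285 promoters of expressed coding genes. The G-box CACGTG, which holds that core, was in 14, 15.7%, beside 9.67%. The heat shock element GAANNTTC was in 14, 15.7%, beside 11.3%, and the evening element AAATATCT in 11, 12.4%, beside 5.97%. TGGGCC, the site II motif, was in 8, 8.99%, beside 21.6%. Shares for the W-box core TTGAC were 49.4% and 49.8%, for TATAAA 50.6% and 51.1%, for CCGAC 12.4% and 16.8%, for the telo-box AAACCCTAA 3.37% and 3.29%, and for GCCGCC 1.12% and 2.60%. These are counts of letters, not of bound sites.

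HDA6 (AT5G63110) transcript was at 3.96 FPKM in heated Col-0 and 3.44 FPKM in heated hda6, which does not check the label of a line made by chemical mutagenesis. None of 20 genes for HDA6, related deacetylases and their known partners was a member. In the authors' deposited table for hda6 at 37 °C, 6 of 19 such genes tested were lower and 1 higher, beside 9.41% and 9.06% of all genes tested. The share of expressed genes was not computed. The flowering gene FLD had the largest fall among the 6, at -0.997. Of 16 markers of seedling tissues and of pollen, flower and seed, 15 were tested in the authors' deposited table for heated hda6. Of these, 3 were higher and 2 lower, beside the same 9.06% and 9.41% of all genes tested. The root genes PRP3 and CASP1 were higher by 0.77 and 0.67 and the leaf gene RBCS1A by 0.29, and the epidermal gene ATML1 was lower at -0.41 and the seed gene CRA1, under 0.2 FPKM, at -2.23. Other root and epidermal markers were not called after heat, with the root hair gene COBL9 at -0.35, EXP7 at 0.36 and the epidermal gene PDF1 at 0.07. At 22 °C 4 of 15 markers tested were higher in hda6 and 3 lower, beside 6.1% and 4.5% of all genes tested. The 4 were the root genes PRP3 at 0.57, COBL9 at 0.47, EXP7 at 0.44 and CASP1 at 0.39. The 3 were the leaf genes LHCB1.3 at -0.22 and RCA at -0.17, and ATML1 at -0.19. The summed FPKM of the 13 markers with recovered libraries was 59.0 to 63.0 in heated Col-0, 66.6 to 69.5 in heated hda6 and 54.9 to 56.5 in heated sant-null. The leaf genes RBCS1A, LHCB1.3 and RCA were not among the 13. PDF1 was the largest part of the sum, at 32.9 FPKM in heated Col-0 and 34.5 FPKM in heated hda6, so the sum is no measure of seedling tissue content. The pollen marker VGD1 was at 0 in 5 of 6 groups. The part of these differences in the members' levels was not tested.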

How the data were processed

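RNA was extracted from whole seedlings and made into libraries with the NEBNext Ultra RNA kit, per the labels' protocols. The authors deposited 1 FPKM column per group, which equals the mean of its 3 libraries, and 5 comparison tables, per the file headers with a baseMean (a signal, the mean normalised read count), a log2 fold change with its SE, a test score (stat), a p-value and an adjusted p-value. The submitters' processing notes name TAIR10, DESeq2 1.30.1, featureCounts 2.0.1, HISAT2 2.2.1 and CASAVA, with roles, filters and use of strand not given in the sources used here.

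The members were found in the deposited FPKM columns. Whole read counts of single libraries were recovered as the combinations that give both the FPKM and the baseMean values. The answer was unique for 98.891% of genes, and for 98.640% of genes above 0 in any group. In 33722 of 33722 held-back checks the baseMean agreed to a relative 1e-07. These checks used genes whose counts the FPKM values alone fixed, some in more than 1 comparison. They check the library scaling, not the counts that baseMean values helped to choose. The deposited tables were the main results. Heat changes in sant-null and hda6 were the deposited heat change in Col-0 plus the difference between the mutant's fold changes at 37 °C and 22 °C, with the squared errors of the mutant's tables summed, a Wald test and Benjamini-Hochberg adjustment over all genes. The added alternative was limma 3.58.1 (R 4.3.3) with a trend on log2 of normalised counts plus a pseudocount of 1, for 20690 genes with at least 10 reads in at least 3 libraries. It was chosen after seeing the data. Scripts (Python 3.11.15) were tested on simulated data. Promoters and annotation came from RefSeq TAIR10.1.

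Library totals ranged from 38.1 to 53.6 M reads. The members and all gene lists were chosen with earlier results of these data known. Members were named by their level (the 12 highest in heated Col-0), their ratio (the 12 lowest at 5 FPKM or more), their heat change in sant-null (the 8 largest rises and 8 largest falls), list membership, product family and nearness to a threshold. Other members that are named, among them GTE7, SDG40, SQE2, MAPKKK17, BSK10, LEA7, RDUF1, RDUF2, XT1 and LBD39, were chosen after their values were seen. The list of abscisic acid genes was added after the members had been seen.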

Additional observations from a re-analysis of the deposited data

Results flagged for a closer look

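A difference in heat response between genotypes was tested for each member, as the difference between the mutant's deposited fold changes at the 2 temperatures. The heat response was lower in hda6 than in Col-0 for 69 members, which the choice of members fixes in large part. It was lower in sant-null than in Col-0 for 6 members and higher for 0, beside 0.337% and 0.499% of all genes; this difference contains the Col-0 libraries the choice used and is a description. With limma on the recovered libraries the counts were 76 for hda6, and 10 lower and 0 higher for sant-null, of 101 members tested.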

How the results depend on the processing

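No paired analysis was possible because the recovered libraries carry no replicate number. With a fold change of at least 2 required as well, 18 members fell with heat in sant-null in place of 30, and 45 in place of 69 had a lower heat response in hda6. On the FPKM scale, which heat shifted down, the members' median heat change in sant-null turned from 0.67 to -0.41 (-0.26 with a pseudocount of 1), beside a median of -0.76 over all genes at 1 FPKM or more; 26 members rose and 48 fell. The number of members was 19 with at least 5 FPKM in heated Col-0, 21 with a ratio of at most 0.4 at 37 °C and 10 with a pseudocount of 1 (9 of them members). Leaving out 1 library at a time gave 100 to 115 members, of which 87 to 93 were shared with the 104 when a 37 °C library was left out and 99 to 102 when a 22 °C library was. With limma it gave 91 to 94 called lower in hda6 at 37 °C, 67 to 76 with a lower heat response in hda6, and 85 to 87 called with heat in sant-null, of which 51 to 52 rose and 33 to 35 fell. The cause of these changes was not tested. Low read counts limit the noncoding members, and the 3 members without recovered libraries have no spread.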
